A study of Mus musculus with 18 samples.

Results

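Trophoblast stem cells (TSCs) were compared between day 7 and day 2 of hypoxia by bulk RNA sequencing. The comparison used 4 of the 18 libraries of the series, 2 biological replicates for each day, and covered 12481 of the 13518 genes in the TSC table. A gene was included when its level exceeded 0.4 TPM in at least 2 of the 6 TSC libraries, the other 2 libraries being normoxic TSCs. TPM gives reads relative to the library total, here divided by the whole gene span, introns included. Hypoxic cells were kept at 2% oxygen and normoxic cells at 20%. All 3 conditions used mouse TSCs grown on feeder cells in medium with serum, FGF4 and heparin, and the plating density was matched. The labels give no name, sex or genotype for the TSC line. Normoxic cells were sampled at a single time, so time in culture and time in hypoxia cannot be told apart in this comparison.

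TSCs are derived from the trophectoderm of the blastocyst or the early extraembryonic ectoderm, the tissue that builds the fetal part of the placenta. FGF4 signalling through ERK keeps them self-renewing, together with transcription factors such as CDX2, EOMES, ELF5, ESRRB and SOX2. When FGF4 is withdrawn they give rise to trophoblast giant cells, spongiotrophoblast and syncytiotrophoblast. Low oxygen stabilises hypoxia-inducible factors (HIFs), which bind DNA as a heterodimer of an alpha subunit and ARNT and switch on genes of glycolysis, mitophagy and angiogenesis.

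The reads behind the TPM values, recovered from the deposited table, ranged from 43011670 to 49851162 per TSC library. The libraries of one day lay closer to each other (Euclidean distance over log2 values of 59.6 between the day 2 libraries and 49.6 between the day 7 libraries) than to those of the other day (70.2 to 99.6), while the 2 normoxic libraries were 73.0 apart. All 5 defining TSC markers (Cdx2, Eomes, Elf5, Esrrb and Tfap2c) were present in every library. Of the markers of the other cell types in the series, Nanog of embryonic stem cells (ESCs) did not exceed 4.67 TPM in any library. Dppa5a, another ESC marker, was at 21.0 and 5.37 TPM on day 2 and at 1.37 and 3.44 TPM on day 7. It did not pass the test (log2 fold change -2.05, adjusted p = 0.118 in limma). Gata4 of extraembryonic endoderm (XEN) cells did not exceed 2.42 TPM, and Foxa2, also a XEN marker, reached 8.98 TPM. Because the divisor of TPM was the gene span with introns, long genes have low values, and levels of different markers cannot be ranked. Zfp42, Tbx3, Klf2 and Klf4, which mark ESCs but are not restricted to them, were at 29.5 to 135 TPM. Of 6 ESC markers tested Nanog and Zfp42 fell, and of 5 XEN markers tested Gata4 fell. In contrast, all 15 fibroblast markers, which the feeder cells would carry, were in the table. Their summed level was 577 and 2157 TPM on day 2, 888 and 484 TPM on day 7, and 3856 and 526 TPM in normoxia, so that it differed more between replicates than between days. Of the 15, only Pdgfra, a receptor for platelet-derived growth factor, passed the test (log2 fold change 1.55). Of the 4 macrophage and blood markers in the table, 3 could be tested and 0 passed, and their sum was 686 and 454 TPM on day 2 against 324 and 543 TPM on day 7.

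**Figure D1:**
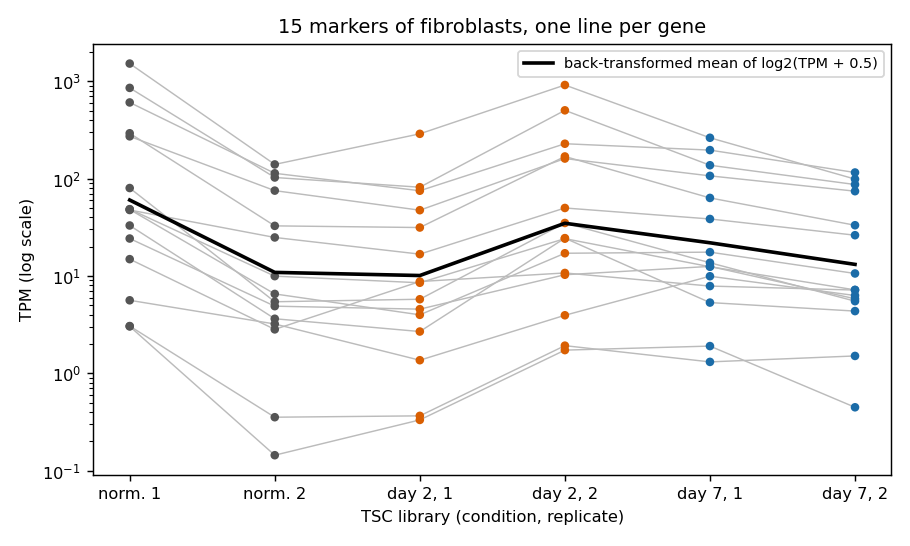
TPM of 15 fibroblast markers (log axis) in each TSC library, with one grey line per gene and a black line for the back-transformed mean of log2(TPM + 0.5); points are grey for normoxia, orange for day 2 and blue for day 7. The markers were highest in normoxic replicate 1 (sum 3856 TPM) and in day 2 replicate 2 (sum 2157 TPM), and the day 7 libraries (888 and 484 TPM) lay within the range of the day 2 libraries or just below it.

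From day 2 to day 7 of hypoxia, 2019 genes (16.2%) were differentially expressed (DE), of which 296 (2.37%) were higher and 1723 (13.8%) were lower on day 7. A gene was called DE with an adjusted p of at most 0.1 in limma (Benjamini-Hochberg over all 12481 genes) and a fold change over 1.5, and every fold change below is the day 7 mean minus the day 2 mean of log2(TPM + 0.5). Among the DE genes, 159 fell and 27 rose by more than 4-fold. Both day 7 libraries lay below both day 2 libraries for 44.9% of genes and above them for 14.3%, or 59.3% of genes without overlap. An unadjusted p under 0.05 was reached by 27.9% of genes.

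The whole distribution was shifted: the median log2 fold change of all tested genes was -0.24, and 31.2% of genes had a value above 0. Scaling each library by its median ratio to the geometric mean of the 6 libraries brought this median to 0.01. With that scaling 1706 genes were DE (13.7%), 724 higher (5.8%) and 982 lower (7.87%), so the share of DE genes that were lower was 57.6% in place of 85.3%. For this reason the count after scaling is given beside the count of a gene group. Each count is to be read against the share of all genes, 13.8% lower and 2.37% higher. After scaling these shares were 7.87% and 5.8%. In all, 1277 genes were DE in both analyses.

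The number of DE genes depended on single libraries. It was 30 without day 2 replicate 1, 1519 without day 2 replicate 2, 284 without day 7 replicate 1 and 0 without day 7 replicate 2, where the lowest adjusted p in limma was 0.114 and 2094 genes had an unadjusted p under 0.05. A day was then represented by 1 library, which was assumed to vary like the other conditions. Of the 127 DE genes chosen by the naming rule, 18, 99, 45 and 0 were still DE in these 4 settings. The range of the median over these settings is given below for the larger groups.

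**Figure D2:**
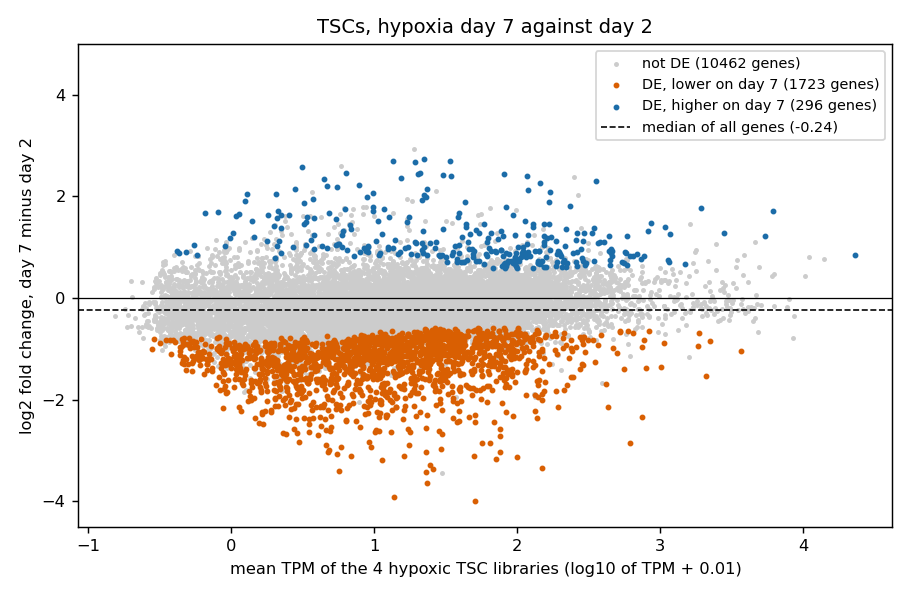
Log2 fold change (day 7 minus day 2) of the 12481 tested genes in TSCs against their mean TPM in the 4 hypoxic libraries, on a log10 axis. Orange points are the 1723 DE genes that were lower on day 7, blue points the 296 that were higher, and the dashed line at -0.24 is the median of all genes.

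Most of the transcription factors listed for TSCs were lower after 7 days than after 2 days of hypoxia. Of the 16 factors tested, 11 fell, 0 rose and 5 did not pass the test, where 13.8% of all genes fell, and the median log2 fold change was -0.99 against -0.24 for all genes (7 lower and 1 higher after median-ratio scaling). Sox2 (chr3:34650405-34652461, mm10), which encodes a factor shared by TSCs and pluripotent cells, was at 1045 and 1104 TPM on day 2 and at 172 and 129 TPM on day 7, after 660 and 714 TPM in normoxia. Both day 7 libraries were thus far below all 4 other libraries, and the log2 fold change was -2.85 (SE 0.20, adjusted p = 0.00579 in limma). Elf5 (chr2:103411688-103450989), an ETS factor that marks the trophoblast lineage, was at 82.5 and 85.1 TPM on day 2 and at 18.8 and 14.7 TPM on day 7. Its replicates agreed closely on both days, and it fell by 2.30 on the log2 scale (SE 0.20, adjusted p = 0.00685 in limma).

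Cdx2 (chr5:147300805-147307270), the caudal homeobox factor of the trophectoderm, was at 88.0 and 169 TPM on day 2 and at 40.3 and 35.1 TPM on day 7. The day 2 replicates differed by more than the day 7 replicates, but the days did not overlap (log2 fold change -1.68, SE 0.31, adjusted p = 0.0294 in limma). Eomes (chr9:118478212-118486132), a T-box factor required for trophoblast growth, went from 271 and 469 TPM to 142 and 104 TPM (-1.55, SE 0.30). Esrrb, an orphan nuclear receptor, went from 28.0 and 28.2 TPM to 8.89 and 5.64 TPM (-1.91, SE 0.26). Of the 5 defining markers, the exception was the AP-2 factor gene Tfap2c, at 383 and 404 TPM on day 2 and 488 and 463 TPM on day 7, which did not pass the test (0.27, adjusted p = 0.367 in limma).

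In the other members, Id2, an inhibitor of bHLH factors, fell by 2.35 on the log2 scale, although its day 2 replicates were at 1775 and 730 TPM, and the chromatin organiser gene Satb1 fell from 10.4 and 11.3 TPM to 2.47 and 1.68 TPM (-2.15). Klf5, Gata3, Tead4 and Sall4 fell by between 0.86 and 1.01 and were not DE after scaling. Ets2 (0.52), which was the 1 member higher after scaling, Gata2 (0.41), Tfap2a (-0.25) and Zfp281 (-0.36) did not pass the test. The median of the group lay between -1.21 and -0.72 with 1 library left out, and 0 to 10 members were then DE and lower. With the mean fibroblast marker level of each library as a covariate, 11 members were DE and lower as before. Fewer cells of a type and less RNA per cell cannot be told apart in these bulk libraries.

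**Figure D3:**
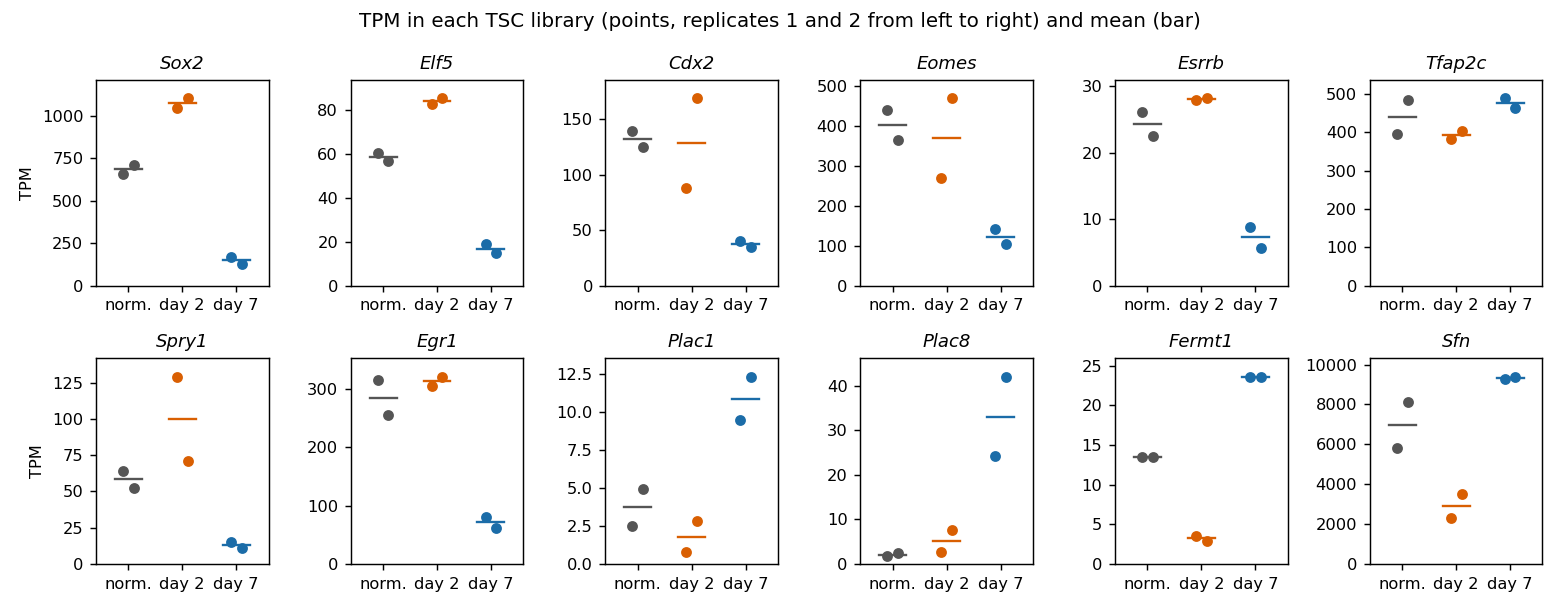
TPM of 12 genes in each TSC library (linear axes from 0; points are replicates 1 and 2, bars their mean; grey normoxia, orange day 2, blue day 7). Sox2, Elf5, Cdx2, Eomes, Esrrb, Spry1 and Egr1 were lowest in the day 7 libraries, Plac1, Plac8, Fermt1 and Sfn were highest there, and Tfap2c stayed between 383 and 488 TPM in the 6 libraries.

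Genes of FGF receptors and of the feedback that ERK signalling induces were more often lower than higher on day 7. Of 22 tested, 9 fell, 3 rose and 10 did not pass, where 13.8% of all genes fell and 2.37% rose. The median log2 fold change was -0.98 (8 lower and 3 higher after scaling). Spry1, a feedback inhibitor of receptor tyrosine kinases, was at 129 and 71.2 TPM on day 2 and at 15.3 and 10.9 TPM on day 7, a log2 fold change of -2.84 (SE 0.32, adjusted p = 0.0138 in limma). Egr1, an immediate early gene of the ERK pathway, was at 305 and 321 TPM on day 2, close to the 315 and 255 TPM of normoxia, and at 80.9 and 62.1 TPM on day 7. Neither gene overlapped between the days, and Egr1 fell by 2.13 on the log2 scale. The receptor gene Fgfr4 (-2.89), the receptor antagonist Il17rd (-1.92) and the ETS factors Etv5 (-1.86) and Etv4 (-1.29) fell as well, as did Spred1, Fgfr3 and, not after scaling, Spred2. Fgfr2, the main FGF4 receptor of TSCs, did not pass (-0.53), nor did Dusp6 (-1.08), whose day 2 replicates were at 123 and 298 TPM, or Myc (0.07). The 3 genes that rose were Fosl1 (2.4), which encodes an AP-1 subunit, the ERK phosphatase gene Dusp5 (1.46) and Phlda1 (1.29). The median of the group lay between -1.07 and -0.81 with 1 library left out, and 0 to 8 members were then DE and lower.

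Other developmental signals had members that fell in every list and members that rose in the retinoic acid and Hippo lists, where 13.8% of all genes fell and 2.37% rose. In the Nodal pathway 6 of 11 genes fell and 0 rose (median -0.80, 4 lower after scaling), including the ligand Nodal (-1.86), its convertase gene Pcsk6 (-2.10) and the SMAD partner gene Foxh1, which went from 314 and 267 TPM to 76.1 and 87.4 TPM (-1.82). In the BMP pathway 9 of 18 genes fell and 0 rose (median -0.80, 7 lower after scaling), among them the ligand genes Bmp4 (-1.40) and Bmp7 (-2.16) and the target gene Msx1 (-2.61). Nrarp (-1.80), a target and inhibitor of Notch, and the receptor genes Notch4 (-1.75) and Notch1 (-1.21) were among the 5 of 15 Notch pathway genes that fell (3 lower after scaling). Of 13 Wnt feedback and TCF/LEF genes 2 fell, a share near that of all genes (2 lower after scaling): Apcdd1 (-1.50) and T, the latter listed at 0 in both day 7 libraries after 1.80 and 1.65 TPM on day 2. The direct Wnt target Axin2 did not pass (0.21). In the retinoic acid pathway 3 of 14 fell and 1 rose (1 and 1 after scaling). Cyp26a1, which degrades retinoic acid, fell from 52.9 and 126 TPM to 11.1 and 7.37 TPM (-3.10), and Rdh10, which takes part in its synthesis, rose from 7.40 and 8.65 TPM to 21.3 and 12.8 TPM (1.0). Among 9 Hippo and YAP genes, Tead3 rose (0.86) and Tead2 fell (-1.30), both also after scaling.

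Regulators of embryonic development were among the genes with the largest falls. Across the developmental regulator families (HOX, SOX, FOX, T-box, WNT, FGF, ZIC, PAX and others), 36 of 137 tested genes fell and 1 rose, where 13.8% of all genes fell and 2.37% rose. The median was -0.46 (27 lower and 3 higher after scaling, where 7.87% of all genes were lower and 5.8% higher). Insm1 (chr2:146221921-146225020), a zinc finger factor of neuroendocrine cells, was at 78.4 and 114 TPM on day 2 and at 4.65 and 6.40 TPM on day 7. It had the largest fall of any gene chosen by the naming rule (log2 fold change -4.0, SE 0.26, adjusted p = 0.00579 in limma), and its normoxic level was 36.8 and 36.4 TPM. Zic2 fell from 94.3 and 161 TPM to 19.4 and 9.03 TPM (-3.17), and Zic5 from 46.5 and 56.7 TPM to 7.73 and 7.62 TPM (-2.66). Wnt6, a secreted ligand, fell from 50.6 and 33.8 TPM to 2.97 and 3.91 TPM (-3.42). For these genes both day 7 libraries were below all 4 other libraries. The 1 gene that rose was Sox9 (0.88). Leaving out 1 library gave 0 to 25 DE lower members and a median between -0.64 and -0.24.

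Other large falls were seen for Nr0b1 (-3.92), an orphan nuclear receptor also active in pluripotent cells, Bglap3 (-3.65), an osteocalcin-related gene, Tcf15 (-3.41), a bHLH factor, and Duox2 (-3.37), an NADPH oxidase. Duox2 went from 50 and 45.2 TPM to 4.12 and 4.15 TPM. Fgfbp1, a secreted protein that carries FGFs off the extracellular matrix, went from 333 and 207 TPM to 25.2 and 26.0 TPM (-3.33), below its normoxic 78.1 and 75.4 TPM. Hs3st3b1 (-3.28), a heparan sulfate sulfotransferase, Tmem114 (-3.20) and the BMP family ligand gene Gdf6 (-3.11) completed the group with Slc2a3, described below. Among genes with a high mean TPM, Utf1 (-1.53), a chromatin protein gene of undifferentiated cells, and Cldn6 (-1.35), a tight junction claudin, fell and were DE after scaling too. Bex1, Tceal9, Hnrnpa1, Rhox5, Eno1 and Mcl1 fell by 0.65 to 1.05 but were not DE after scaling.

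Plac1, Plac8 and Fermt1 were among the genes that rose most. Plac1 (chrX:53069995-53240111), an X-linked gene expressed in trophoblast, was at 0.782 and 2.79 TPM on day 2 and at 9.43 and 12.3 TPM on day 7, after 2.48 and 4.95 TPM in normoxia (log2 fold change 2.46, SE 0.50, adjusted p = 0.0359 in limma). Plac8, which is expressed in glycogen trophoblast and spongiotrophoblast, was at 2.68 and 7.64 TPM on day 2 and at 24.1 and 42.0 TPM on day 7 (2.67, SE 0.49, adjusted p = 0.0295 in limma). For both genes the day 7 libraries were the highest of the 6. Fermt1 (chr2:132904389-132945906), which encodes the integrin activator kindlin-1, rose from 3.57 and 2.91 TPM to 23.6 and 23.6 TPM (2.69) and had been at 13.5 TPM in both normoxic libraries. Slc38a3, a glutamine transporter, rose from 8.27 and 13.4 TPM to 63.8 and 52.6 TPM (2.4). Lcn2 (2.57), an iron-siderophore binding lipocalin, Il24 (2.46), a cytokine of the IL10 family, and the X-linked homeobox gene Rhox12 (2.43) also rose, Rhox12 with an adjusted p of 0.0976 in limma.

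Serpinb9 genes on chromosome 13, a family of serine protease inhibitors that expanded in rodents and is expressed in the placenta, were higher on day 7. Of the 10 genes of the cluster that were tested, 7 rose, 1 fell and 2 did not pass, with a median log2 fold change of 1.93 (7 and 1 after scaling as well). Serpinb9g (chr13:33484790-33496004) was at 2.44 and 10.6 TPM on day 2 and at 42.1 and 33.6 TPM on day 7 (2.74, SE 0.66, adjusted p = 0.0524 in limma). Serpinb9e was at 15.9 and 36.8 TPM on day 2 and at 159 and 112 TPM on day 7 (2.44, SE 0.45). Serpinb9d (2.69), Serpinb9c (2.41), Serpinb9f (2.37), Serpinb9 (1.49) and Serpinb9b (1.47) rose as well. Of the 10 genes tested, 8 had both day 7 libraries above both day 2 libraries, against 14.3% of all genes. In the 7 that rose, day 2 replicate 1 was the lowest of the 6 libraries. Normoxic levels lay between the days for Serpinb9g (11.6 and 30.0 TPM) and Serpinb9e (46.6 and 84.9 TPM). These genes are close copies, so reads may have been split between them. The 1 gene that fell was Serpinb1a (-2.36), which lies in the same cluster. Without day 2 replicate 2 the count was 7 higher and 1 lower, and without any other hypoxic library it was 0, while the median stayed between 1.49 and 2.38.

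Some markers of differentiated trophoblast rose and others fell. Of 11 giant cell genes, 3 rose and 0 fell (3 and 0 after scaling), where 2.37% of all genes rose. Their median was 0.81 against -0.24 for all genes, and 9 of the 11 had a log2 fold change above 0. The 3 were the placental lactogen genes Prl3d1, Prl3d2 and Prl3d3, which share reads as near-identical copies, at levels of 0 to 0.830 TPM on day 2 and 0.916 to 6.53 TPM on day 7. Hand1, a bHLH factor needed for giant cells, was at 8568 and 7234 TPM on day 2 and at 14763 and 12871 TPM on day 7 and did not pass (0.81, adjusted p = 0.137 in limma). Of 9 spongiotrophoblast and glycogen cell genes, Plac8 rose and Ascl2 fell (-1.16), the latter not after scaling. Of 12 syncytiotrophoblast genes, Lgals3 rose (1.29), and Gjb2 (-1.77), Gcm1 (-1.38) and Ly6e (-0.98) fell, of which Gjb2 was DE after scaling. Gcm1, the factor that drives syncytiotrophoblast formation, was below 2 TPM in every library.

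Genes with a high mean TPM that rose included genes of the cytoskeleton and of epithelial cells. TPM was divided by gene span here, so this choice depends on span as well as on reads. Actb, the cytoplasmic actin, was at 15016 and 18176 TPM on day 2 and at 29771 and 29389 TPM on day 7 (0.84, not DE after scaling, where its log2 fold change was 1.12). Its normoxic level was 27494 and 24564 TPM. Sfn, an epithelial 14-3-3 protein gene, rose from 2307 and 3499 TPM to 9274 and 9395 TPM (1.72, SE 0.29), beside 5829 and 8104 TPM in normoxia. Rhob (1.77), a small GTPase, Lgals1 (1.28), Zyx (1.26), a focal adhesion protein, Cstb (0.70) and the myosin light chain gene Myl6 (0.68) rose too. Sfn, Rhob, Lgals1, Zyx, Cstb and Myl6 were DE after scaling. All of these genes, Actb included, were lower in both day 2 libraries than in both normoxic libraries. Among 17 keratin and junction genes, Krt7 (1.33) and Krt8 (1.23) rose, while the cell adhesion genes Cldn3 (-1.38), Cldn6, Cdh1 (-1.05) and Epcam (-1.04) fell. Of those that fell, Cldn6 was DE after scaling. Of 12 mesenchymal genes the 1 that passed was Snai1, a repressor of Cdh1, at 97.9 and 109 TPM on day 2 and at 256 and 222 TPM on day 7 (1.20). Of 12 basement membrane genes, Nid1 (-1.28) and Nid2 (-2.05) fell, a share near the 13.8% of all genes. Nid1 was not DE after scaling.

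Part of the hypoxia target genes fell from day 2 to day 7 at the same oxygen level, while others did not pass the test. Among 22 genes of glycolysis and lactate transport, 11 fell, 1 rose and 10 did not pass, where 13.8% of all genes fell and 2.37% rose. The median log2 fold change was -0.86 (7 lower and 1 higher after scaling). Among 30 other HIF target genes 15 fell, 1 rose and 14 did not pass, with a median of -0.90 (9 lower and 1 higher after scaling). Slc2a3 (chr6:122727809-122801640), a high-affinity glucose transporter, was at 220 and 140 TPM on day 2 and at 19.8 and 19.6 TPM on day 7, beside 11.2 and 19.4 TPM in normoxia. The 2 day 2 libraries stood apart from the other 4, and the log2 fold change was -3.12 (SE 0.32, adjusted p = 0.0114 in limma). Pdk1, which restrains pyruvate entry into the mitochondrion, was at 89.6 and 82.0 TPM on day 2, 15.6 and 15.2 TPM on day 7 and 15.5 and 14.5 TPM in normoxia (-2.44, SE 0.19, adjusted p = 0.00599 in limma). Eno2 (-2.36), Aldoc (-2.35) and Pfkfb3 (-2.34) were also highest on day 2, with Aldoc at 301 and 164 TPM on day 2, 37.5 and 49.5 TPM on day 7 and 14.1 and 23.9 TPM in normoxia.

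Not all of these genes changed alike. Pgk1, the phosphoglycerate kinase, went from 630 and 609 TPM to 285 and 339 TPM (-0.99), above its normoxic 223 and 158 TPM, and was not DE after scaling. Ldha, at 1655 and 1897 TPM on day 2 and 1180 and 1286 TPM on day 7, did not pass the test (-0.52, adjusted p = 0.138 in limma). Gapdh did not pass either (-0.17). Pfkfb4, a bifunctional regulator of phosphofructokinase, was the 1 that rose, from 2.19 and 3.20 TPM to 6.39 and 5.56 TPM (1.03). With 1 library left out, the median of the glycolysis group lay between -0.86 and -0.78 and its count of DE lower genes between 0 and 9.

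Outside glycolysis, Bnip3, a receptor for mitophagy, was at 86.5 and 93.2 TPM on day 2 and at 25.0 and 26.8 TPM on day 7, above 15.7 and 16.2 TPM in normoxia (log2 fold change -1.77, SE 0.18, adjusted p = 0.0114 in limma). Vldlr (-2.41), a lipoprotein receptor, the carbonic anhydrase gene Car12 (-1.99) and Ndrg1 (-1.75) fell too. Bhlhe40, a bHLH repressor, rose from 429 and 500 TPM to 937 and 725 TPM (0.83). The angiogenic factor gene Vegfa did not pass (0.21), nor did Adm, encoding the vasodilator adrenomedullin, at 47.9 and 196 TPM on day 2 and 321 and 493 TPM on day 7 (2.03, adjusted p = 0.179 in limma). With 1 library left out, the median of the group lay between -0.94 and -0.72 and its count of DE lower genes between 0 and 7. Among 9 HIF subunits and regulators, Hif3a alone passed the test. It encodes a HIF alpha subunit, is itself a HIF target, and went from 38.8 and 27.6 TPM to 7.26 and 5.14 TPM (-2.33, SE 0.32), while Hif1a was at 29.4 and 33.3 TPM on day 2 and 54.8 and 29.3 TPM on day 7 (0.35, adjusted p = 0.482 in limma).

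**Figure D4:**
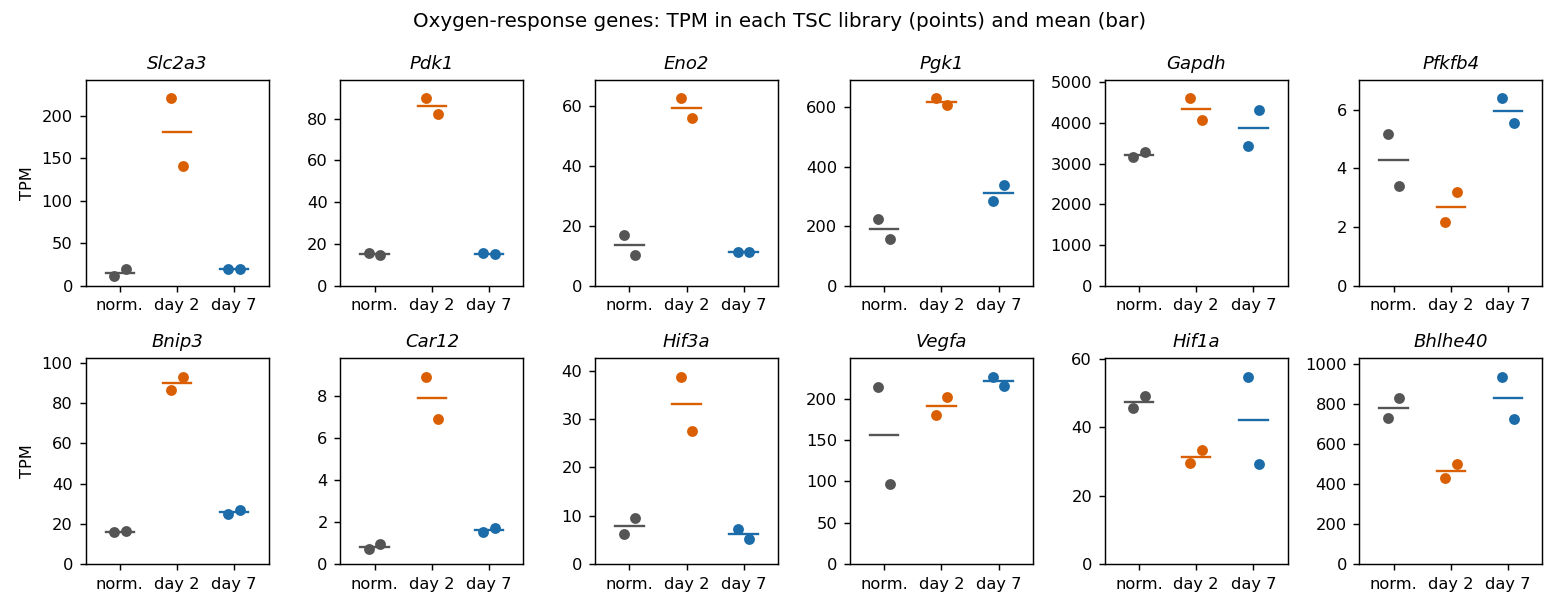
TPM of 12 oxygen-response genes in each TSC library (linear axes from 0; points are replicates 1 and 2, bars their mean; grey normoxia, orange day 2, blue day 7). Slc2a3, Pdk1, Eno2, Bnip3, Car12 and Hif3a were highest in both day 2 libraries, Pgk1 on day 7 (285 and 339 TPM) lay between normoxia and day 2, and Pfkfb4 and Bhlhe40 were lowest on day 2.

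The promoters of 3 of the genes that were higher on day 2 than in the 4 other libraries are shown, chosen because they hold letters bound by HIF. Eno2, Car12 and Vldlr, which were also highest on day 2, had 0 matches in the same window. Each runs from 250 bases before to 50 bases after the RefSeq start (GRCm38.p6, 5′ to 3′ on the strand of the gene), and capitals mark ACGTG or GCGTG, the core letters bound by HIF, on either strand, so that they read CACGT or CACGC where the match is on the other strand. Pdk1 lies at chr2:71872974-71873273 (plus strand, 2 matches), Bnip3 at chr7:138909457-138909756 (minus strand, 5 matches, of which 2 overlap as CACGTG) and Hif3a at chr7:17062378-17062677 (minus strand, 2 matches).
Pdk1: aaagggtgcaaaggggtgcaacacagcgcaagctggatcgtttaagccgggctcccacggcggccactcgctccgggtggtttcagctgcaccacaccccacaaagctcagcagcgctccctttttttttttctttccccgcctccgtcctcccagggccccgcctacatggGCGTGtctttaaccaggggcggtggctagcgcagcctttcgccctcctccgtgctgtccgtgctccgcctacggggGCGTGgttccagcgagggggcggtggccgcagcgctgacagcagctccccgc
Bnip3: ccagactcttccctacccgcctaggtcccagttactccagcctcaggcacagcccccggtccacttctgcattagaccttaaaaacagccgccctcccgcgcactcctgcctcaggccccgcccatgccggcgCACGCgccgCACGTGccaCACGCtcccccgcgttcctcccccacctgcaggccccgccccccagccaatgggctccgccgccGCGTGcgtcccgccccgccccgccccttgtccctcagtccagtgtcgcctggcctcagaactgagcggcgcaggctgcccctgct
Hif3a: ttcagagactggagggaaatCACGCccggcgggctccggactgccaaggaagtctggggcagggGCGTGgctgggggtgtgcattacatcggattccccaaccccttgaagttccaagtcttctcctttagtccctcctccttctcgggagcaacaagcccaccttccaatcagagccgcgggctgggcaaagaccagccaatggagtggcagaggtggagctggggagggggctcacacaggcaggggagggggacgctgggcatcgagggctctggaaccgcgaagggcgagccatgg
Such a match is common: it was found in 6350 of the 9944 tested genes with a promoter sequence (63.9%), in 33 of 45 hypoxia genes with one (73.3%) and in 17 of the 22 of these that were DE and lower on day 7 (77.3%). No binding was measured in these libraries.

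Nearly all listed mitosis genes fell. Of 21 mitosis genes, 20 fell and 0 rose, with a median log2 fold change of -1.28 (17 lower after scaling). Bub1, a kinase of the spindle checkpoint, was at 79.8 and 73.0 TPM on day 2, 21.7 and 18.4 TPM on day 7 and 35.7 and 37.0 TPM in normoxia (-1.91, SE 0.19, adjusted p = 0.0110 in limma). Mki67, which encodes the proliferation antigen Ki-67, fell from 230 and 189 TPM to 68.9 and 65.0 TPM (-1.63), and Nusap1 (-1.94) and Bub1b (-1.84) fell as well. In all 21 genes, including Birc5 (-0.33), which did not pass, both day 7 libraries lay below both day 2 libraries, against 44.9% of all genes. Of 30 DNA replication genes, 14 fell and 0 rose, with a median of -0.64 (7 lower after scaling). Mcm7, a subunit of the replicative helicase, went from 441 and 385 TPM to 178 and 154 TPM (-1.31), whereas Pcna did not pass (-0.23). Among 20 CDK inhibitor and p53 target genes, Cdkn1b fell (-1.11), and Cdkn1a (0.64) and Cdkn1c (0.94) did not pass, although Cdkn1a was DE and higher after scaling. With 1 library left out, the medians were between -1.44 and -1.06 for mitosis and between -0.70 and -0.53 for replication, with 0 to 19 and 0 to 6 genes DE and lower.

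Most genes of cholesterol synthesis, which SREBP2 controls as a group, fell. Of 23 tested, 18 fell and 0 rose, where 13.8% of all genes fell, with a median of -1.19 (14 lower after scaling). Insig1, a sterol sensor in the endoplasmic reticulum, was at 175 and 135 TPM on day 2 and at 42.3 and 21.9 TPM on day 7 (-2.32, SE 0.32, adjusted p = 0.0181 in limma). Hmgcs1, the synthase that feeds the pathway, went from 139 and 132 TPM to 57.4 and 40.2 TPM (-1.48), beside 48.8 and 66.0 TPM in normoxia. Idi1 (-1.97) and Tm7sf2 (-1.67) fell as well. With 1 library left out, the median lay between -1.53 and -0.94 and the count of DE lower genes between 0 and 15.

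Housekeeping groups had medians closer to 0. None of the 75 nuclear genes of oxidative phosphorylation subunits was DE in limma, with or without scaling, while their median was -0.09 and turned to 0.17 after scaling. The smallest and largest log2 fold changes in this group were -0.64 and 0.52. Of 74 mitochondrial ribosome genes, Mrpl17 (0.74) and Mrps7 (0.73) rose and Mrps24 fell (-0.74), with 8 higher and 0 lower after scaling. Of 80 cytosolic ribosome genes, Rpl13a (-0.68) and Rpl3 (-0.66) fell, and 0 were DE after scaling.

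Stress response genes included members that rose and members that fell. Of 19 ATF4 targets, 6 fell and 1 rose (2 and 2 after scaling), where 13.8% of all genes fell and 2.37% rose (7.87% and 5.8% after scaling). Those that fell included Stc2 (-2.07), Pck2 (-1.34) and, not after scaling, Chac1 (-1.13), while Sesn2 rose (0.80). Of 17 endoplasmic reticulum chaperone genes 0 were DE (median 0.26, with 2 higher after scaling), the main chaperone gene Hspa5 being at 849 and 1622 TPM on day 2 and 1777 and 2704 TPM on day 7 (0.90, adjusted p = 0.146 in limma). Of 12 heat shock genes, Hsph1 fell (-0.83), while after scaling 0 were lower and 1 was higher. Of 17 NRF2 targets, Hmox1, the heme oxygenase, rose (0.92), and Gstm1 (-1.75) and Tkt (-0.86) fell, while after scaling 2 were higher and 0 lower. None of 18 interferon response and antigen presentation genes was DE, with or without scaling.

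Among chromatin regulators, 3 of 9 DNA methylation genes fell and 0 rose (2 lower and 1 higher after scaling). The dioxygenase gene Tet1 was at 5.89 and 4.22 TPM on day 2 and at 0.443 and 0.391 TPM on day 7 (-2.58, SE 0.27), and the de novo methyltransferase gene Dnmt3b fell from 148 and 124 TPM to 46.2 and 34.6 TPM (-1.74). Tet2 fell by 0.95 and was not DE after scaling. Of 17 JmjC histone demethylases, which use oxygen as a substrate, 4 fell and 0 rose (2 lower after scaling). Of all genes 13.8% fell, and 7.87% after scaling. Kdm4b (-0.98), a HIF target, was DE in both analyses, whereas Kdm3a (-1.06) and Kdm7a (-1.11) were not DE after scaling. Of 17 imprinted growth regulators 7 fell and 0 rose (5 lower after scaling), led by Mest (-2.11), Dlk1 (-1.47), a non-canonical Notch ligand, and Zim1 (-1.42).

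**Figure D5:**
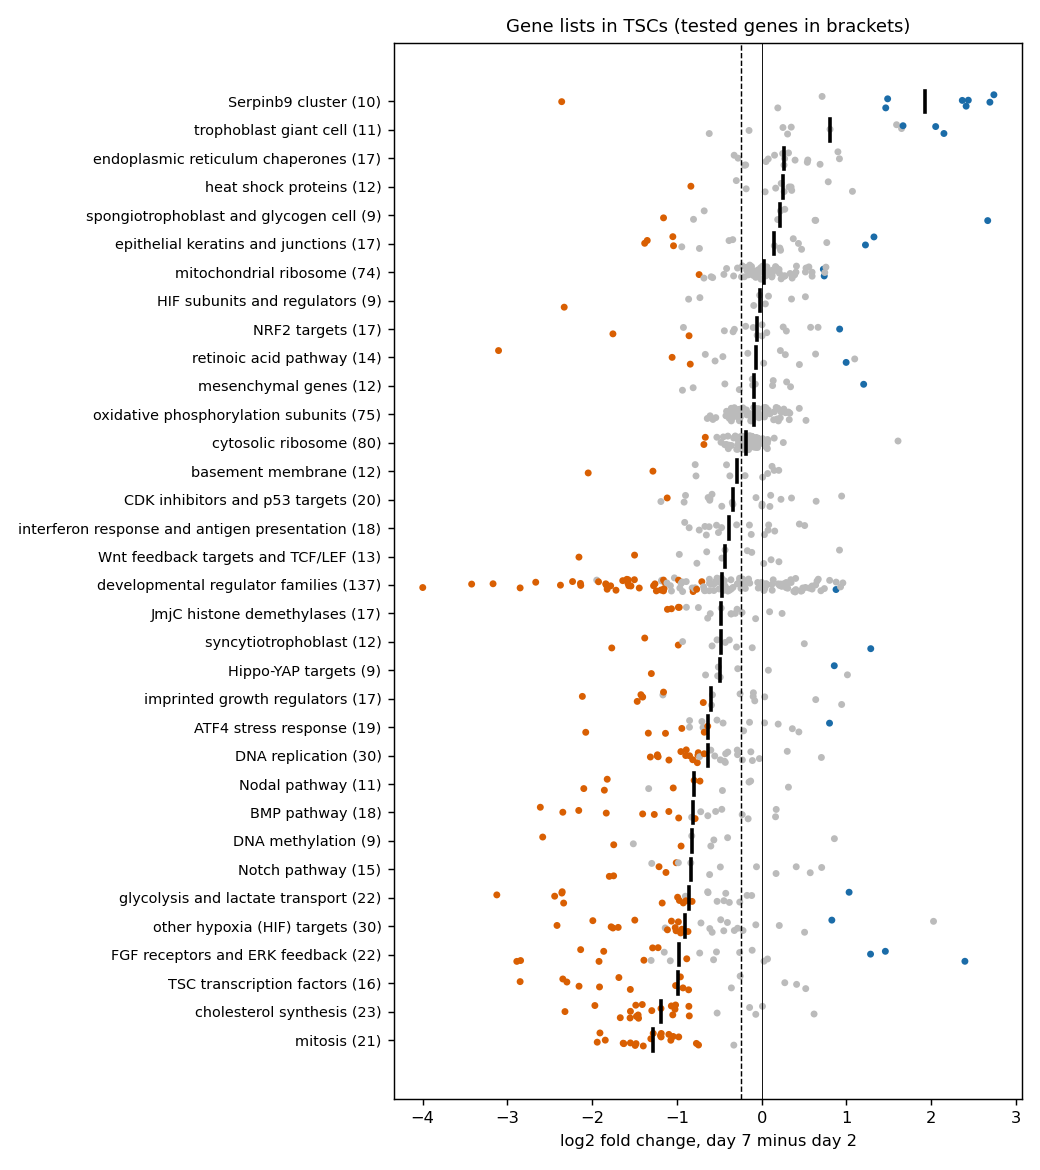
Log2 fold change (day 7 minus day 2) of each tested gene in 34 gene groups in TSCs, with the number of tested genes in brackets, sorted by the group median (black bar). Orange points are DE and lower on day 7, blue points DE and higher, grey points not DE; the dashed line at -0.24 is the median of all 12481 genes, and the groups run from 1.93 for the Serpinb9 cluster to -1.28 for mitosis.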

How the data were processed

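Total RNA of normoxic TSCs and of TSCs kept in hypoxia for 2 or 7 days was sequenced as paired-end reads (KAPA RNA HyperPrep). Per the study's methods and the submitters' processing notes, reads were trimmed (cutadapt 2.4), aligned to mm10 (STAR 2.7.5a) and counted with featureCounts, and the authors kept protein-coding genes that passed 0.4 CPM in 2 or more libraries (edgeR 3.26.8). The authors deposited TPM values. Their divisor was the whole gene span, introns included, since whole reads (within 0.05) returned for 98.7% to 98.9% of genes per library. Levels are therefore not compared between genes, except where the naming rule took genes by mean TPM. Columns named D0 were taken as normoxia.

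Values were analysed as log2(TPM + 0.5) with limma 3.58.1 in R 4.3.3 (trended variance, all 6 TSC libraries, contrast day 7 minus day 2); the pseudocount understates changes of low genes. An exact permutation test of 2 against 2 libraries cannot give a p under 0.333, so none was used. The study calls the replicates biological, but neither it nor the labels say how far the cultures were kept apart. The p-values therefore measure the spread between these libraries, whose depth was 43011670 to 49851162 reads. In simulated counts for this comparison with 200 changed genes, 2-fold changes were recovered in 97.5% (dispersion 0.01) and 30.0% (dispersion 0.05) of cases and 4-fold changes in 100.0% at both, with at most 10 false calls among 12358 to 12394 genes. The simulation had as many rises as falls, no shift of the whole distribution, no varying feeder content, and dispersions not estimated from these data. Its number of false calls therefore does not carry over to the real comparison.

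Lists, alternatives and the naming rule were chosen with earlier results of these data known. The rule took the 12 DE genes with the largest change per direction (at least 5 TPM, DE after median-ratio scaling, days not overlapping). It added up to 3 per list and direction, the 8 with the highest mean TPM per direction, the 5 TSC markers, and markers above 1 TPM, 153 genes in all. Other genes in the text were chosen after their values were seen. The list of replication-dependent histones had 0 members in the table. Gene positions are from GENCODE vM21 (GRCm38). Alternatives covered pseudocount, filter, scaling, variance trend, samples, replicate block, voom on recovered reads, TPM per exon length, thresholds, each library left out and, chosen after seeing the data, the mean fibroblast marker level as a covariate. Tables and figures were made with Python 3.11.15.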

Additional observations from a re-analysis of the deposited data

Results flagged for a closer look

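The 127 DE genes chosen by the naming rule were looked up in ESCs and XEN cells, where they were tested there. In 14 cases a gene moved one way in TSCs and the other way in ESCs or XEN cells from day 2 to day 7 of hypoxia. The days did not overlap in either cell type, and the change in the other cell type was over 1.5-fold. How many of all genes would do so was not computed, so the count of 14 is not shown to be unusual. The difference between cell types was not tested, because each table was normalised separately. Of the 14 changes in the other cell type, those of Rhox5 and T in ESCs passed the test there (limma adjusted p = 0.0124 and 0.0332), and the other 12 did not, with adjusted p of 0.218 or more. In XEN cells, Fosl1 had a log2 fold change of -1.35, Sfn of -1.72, Lgals3 of -1.52, Phlda1 of -0.84 and Snai1 of -0.60, where these rose in TSCs. In XEN cells Id2 had a log2 fold change of 1.93, Pdk1 of 1.44, Vldlr of 1.5 and Pck2 of 1.54, where these fell in TSCs. In ESCs the values were 1.5 for Rhox5, 1.72 for T, 0.98 for Cyp26a1, 1.27 for Mest and 0.62 for Cdx2, where these fell in TSCs.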

How the results depend on the processing

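The number of DE genes (2019, with 296 higher and 1723 lower on day 7) stayed within 1.5 times of this for a pseudocount of 0.1 or 1, no filter, a filter at 1 TPM, no variance trend, the 4 hypoxic libraries alone and TPM per exon length, with 1897 to 2214 genes in all. With median-ratio scaling 1706 genes were DE, 724 higher and 982 lower, and with voom on the recovered reads, which used the same scaling, 1718, 712 higher and 1006 lower. The cause of the difference between scalings was not tested. With adjusted p under 0.05 and a fold change over 2, 846 genes were DE, 87 higher and 759 lower. With the fibroblast marker covariate, chosen after seeing the data, 3438 were DE, 662 higher and 2776 lower, and with scaling added 2958, 1326 higher and 1632 lower. With 1 library left out, the number ranged from 0 to 2215 in all, from 0 to 360 for genes higher and from 0 to 1858 for genes lower on day 7, lowest without day 7 replicate 2 (2094 genes at an unadjusted p under 0.05). A replicate block gave 1975 DE genes, 258 higher and 1717 lower, and 1764 of them were shared with the unblocked analysis. Deviations of the same-numbered libraries had a correlation of -0.03 for day 2 with day 7. For the normoxic libraries it was -0.46 with those of day 2 and 0.27 with those of day 7. Each condition had 2 libraries, so these values cannot show whether same-numbered libraries were handled together. Of the 127 DE genes chosen by the naming rule, 102 were still DE with scaling, 105 with voom and 116 with the block. The median log2 fold change was -0.09 in the tenth of genes with the shortest exon length and -0.37 in the tenth with the longest, and -0.30 in the tenth with the lowest mean TPM against 0.0022 in the highest. With 2 libraries a day, a 2-fold change at the larger simulated dispersion was mostly missed, so a gene that did not pass is not shown to be unchanged.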

Other observations

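The table held 5 genes on the Y chromosome, described here after their values were seen, of which 2 rose, 1 fell and 2 were too low to be tested. Eif2s3y, a translation factor gene, was at 0.782 and 0.454 TPM on day 2, 3.53 and 2.39 TPM on day 7 and 1.06 and 1.01 TPM in normoxia. Ddx3y, an RNA helicase gene, was at 0.796 and 0.506 TPM on day 2 and at 2.75 and 1.65 TPM on day 7. Both rose, with log2 fold changes of 1.63 and 1.21. Gm47283 fell, from 61.1 and 48.7 TPM on day 2 to 28.5 and 28.7 TPM on day 7, and was at 23.0 and 35.2 TPM in normoxia (log2 fold change -0.92, not DE after median-ratio scaling). The demethylase genes Kdm5d and Uty stayed below 0.4 TPM in every library, and the labels give no sex for the TSC line or the feeder cells. The summed fibroblast markers were at 577 and 2157 TPM on day 2 and at 888 and 484 TPM on day 7, and a link between them and these genes was not tested.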
